A study of Mus musculus with 28 samples.

Results

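The Sp100, Sp110 and Sp140 locus is a stretch of mouse chromosome 1 that holds 6 annotated protein-coding genes followed here: Sp100, Sp110, Sp140, C130026I21Rik, A530032D15Rik and Slc16a14. They were taken by name, out of 21755 protein-coding genes on chromosomes 1 to 19 and X, and they define a locus from base 84905898 to base 85709998 of mm10 (804.1 kb). The locus was chosen by measured values: its gene starts lay in an H3K9me2 domain of the 2CLC DMSO set and of none of the other sorted sets. That pattern is a description here and carries no test. H3K9me2, a repressive histone mark laid down by EHMT2 and its partner EHMT1, was profiled in 28 libraries (14 immunoprecipitations and 14 inputs) by ULI-NChIP, which immunoprecipitates native, uncrosslinked chromatin from few cells. The cells were mouse embryonic stem cells (mESCs) derived from the KH2 line (BL6/129 hybrid per the labels, C57BL/6J x 129S1 F1 per the methods) that carried a dTAG degron and an mCherry reporter at the endogenous Ehmt2 gene in all groups, controls included, so that the compound dTAG-13 removes EHMT2. Cells with a MERVL-GFP reporter received the solvent DMSO or dTAG-13 for 72 h and were then sorted on GFP. Cells without GFP are called mESCs, and those with it 2-cell-like cells (2CLCs), since their transcripts resemble those of the 2-cell embryo. There were 3 immunoprecipitation and 3 input libraries for each of 2CLC DMSO, 2CLC dTAG, mESC DMSO and mESC dTAG. Per the methods these were independent experiments on a single clone. The RAR agonist TTNBP was used in these cultures, for 2 of the replicates per the labels, which do not name them, and without that limit per the methods. A further 2 immunoprecipitations and 2 inputs came from bulk mESCs after 24 h in DMSO.

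Each condition is represented by a single list of domains, with no value per replicate, and the depth behind the lists is unknown. A domain was built from bins with a high ratio of immunoprecipitation to input, each extended until a bin with a low ratio was met. Bins inside a domain therefore need not all have a high ratio. A domain is a position, not a level of the mark, and no difference between sets could be set against the spread between cultures. The paper reports that EHMT2 depletion lowered H3K9me2 globally in both cell types. The cut-offs for the ratio were percentiles, so a start that enters a dTAG domain need not have gained the mark. A further list names neither cell state nor treatment and is called the unnamed set. It was assigned to no group, and its values are given beside those of the sorted sets as a description. The bulk mESC DMSO libraries are the only ones without a list named for them, and whether the unnamed set is theirs was not tested.

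Sp100, Sp110 and Sp140 belong to the speckled protein family of nuclear chromatin readers, which are induced by interferon. Sp100 is a constituent of PML nuclear bodies, and Sp110 and Sp140 are known for their part in the control of intracellular bacteria by macrophages. The region between Slc16a14 and Sp100 is known in mice for its tandem and inverted duplications, which differ in copy number between wild mice. H3K9me2 domains of mESCs are broad stretches in which lowly expressed genes and transposable elements tend to lie.

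In the 2CLC DMSO set, a single domain of 750 kb (chr1:84925096-85675094) lay over the locus. It held the start of 6 of the 6 genes. In the mESC DMSO, mESC dTAG and 2CLC dTAG sets the start of 0 of 6 lay in a domain, and those sets had no domain base anywhere in the locus. The unnamed set had a single domain of 905 kb there (chr1:84885646-85790644), again with 6 of 6 starts. It held 60.1% of the 286 starts of all genes that lay in a 2CLC DMSO domain and in no other sorted set. Over all 21755 protein-coding genes, 23.2% of starts lay in a domain in 2CLC DMSO and 26.5% in 2CLC dTAG, against 22.3% in mESC DMSO, 23.6% in mESC dTAG and 30% in the unnamed set. A start in 2CLC DMSO alone among the sorted sets, the pattern of the members, was seen for 286 genes or 1.31% (Wilson 95% interval over genes 1.17% to 1.47%). The 6 members share a domain and are a single observation of this pattern rather than 6.

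**Figure D1:**
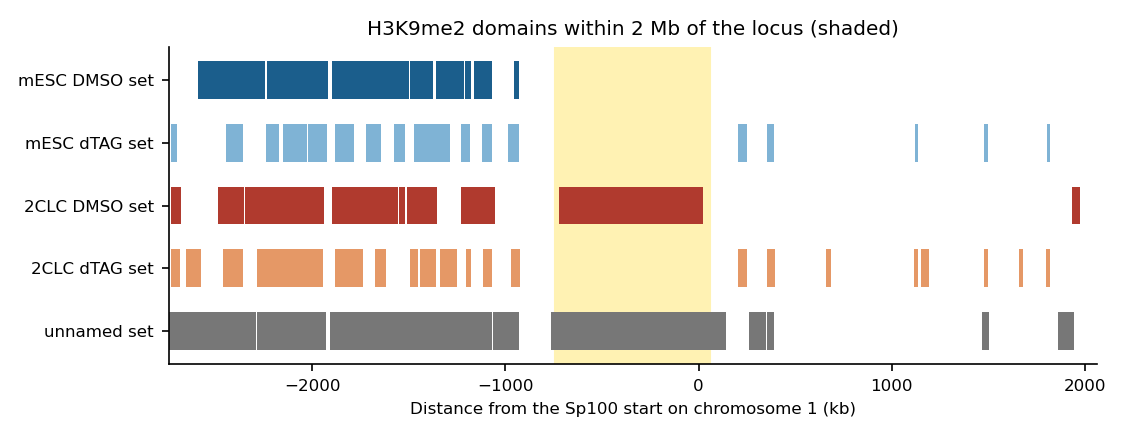
H3K9me2 domains (bars) in the 5 sets within 2 Mb of the locus (shaded), with the distance from the Sp100 start in kb on the x axis. The 2CLC DMSO and unnamed sets each have a single wide bar over the locus, and the other 3 sets have none between their last domain on the left and, in the dTAG sets, the domain that begins 205 kb right of the Sp100 start.

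The speckled protein genes sit at the right end of the locus. Sp110 (ENSMUSG00000070034.13; chr1:85576899-85598817, minus strand) and Sp140 (ENSMUSG00000070031.11; chr1:85600378-85645037, plus strand) are read away from each other in GENCODE M21. In RefSeq their bodies overlap, with Sp110 from base 85570735 to base 85610850 and Sp140 from base 85587491 to base 85645040. Sp100 (ENSMUSG00000026222.16; chr1:85649988-85709998, plus strand) follows to the right. In the 2CLC DMSO set 100% of the Sp110 body and 100% of the Sp140 body were covered, but only 41.8% of the Sp100 body, or 25.1 kb of 60 kb. The right border of the domain fell inside Sp100, so that its start was covered and its end was not. In the unnamed set 100% of all 3 bodies were covered, and in the mESC DMSO, mESC dTAG and 2CLC dTAG sets 0% were.

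The starts of these 3 genes lay at different depths in the domain. In 2CLC DMSO the Sp110 start was 76.3 kb inside the nearer border, the Sp140 start 74.7 kb and the Sp100 start 25.1 kb. In mESC dTAG and in 2CLC dTAG the nearest domain began at base 85855095, which is 256.3 kb from the Sp110 start, 254.7 kb from the Sp140 start and 205.1 kb from the Sp100 start. In mESC DMSO the nearest domain lay on the other side, at distances of 878.7, 880.3 and 929.9 kb. The Sp100 start was thus the member start farthest from a domain in mESC DMSO and the nearest to one in mESC dTAG and 2CLC dTAG.

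C130026I21Rik and A530032D15Rik, named after RIKEN clones and with no role given here, lie in the middle of the locus. C130026I21Rik (ENSMUSG00000052477.15; chr1:84992690-85270566, minus strand) spans 277.9 kb in GENCODE M21, and A530032D15Rik (ENSMUSG00000089844.7; chr1:85083069-85109853, minus strand) lies within that span. RefSeq gives C130026I21Rik a shorter body, from base 85241286 to base 85282883, which does not reach A530032D15Rik. In 2CLC DMSO 100% of each body was covered, and their starts were the deepest of the members, 345.5 kb inside for C130026I21Rik and 184.8 kb for A530032D15Rik. In mESC DMSO and mESC dTAG alike the nearest domain was 550.5 kb from the C130026I21Rik start and 389.8 kb from the A530032D15Rik start. In 2CLC dTAG these distances were 545.5 and 384.8 kb.

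Slc16a14 (ENSMUSG00000026220.6; chr1:84905898-84935134, minus strand), a monocarboxylate transporter family gene, marks the left end. In 2CLC DMSO the left border of the domain fell inside the gene, so that its start lay 10.0 kb inside the domain and 34.3% of its body was covered. In the unnamed set its start lay 49.5 kb inside and 100% of the body was covered. The nearest domain in both mESC sets was 215 kb away and in 2CLC dTAG 210 kb away. The members at the 2 ends of the locus were therefore the ones cut by the borders of the 2CLC DMSO domain, while the 4 members between them were covered in full.

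**Figure D2:**
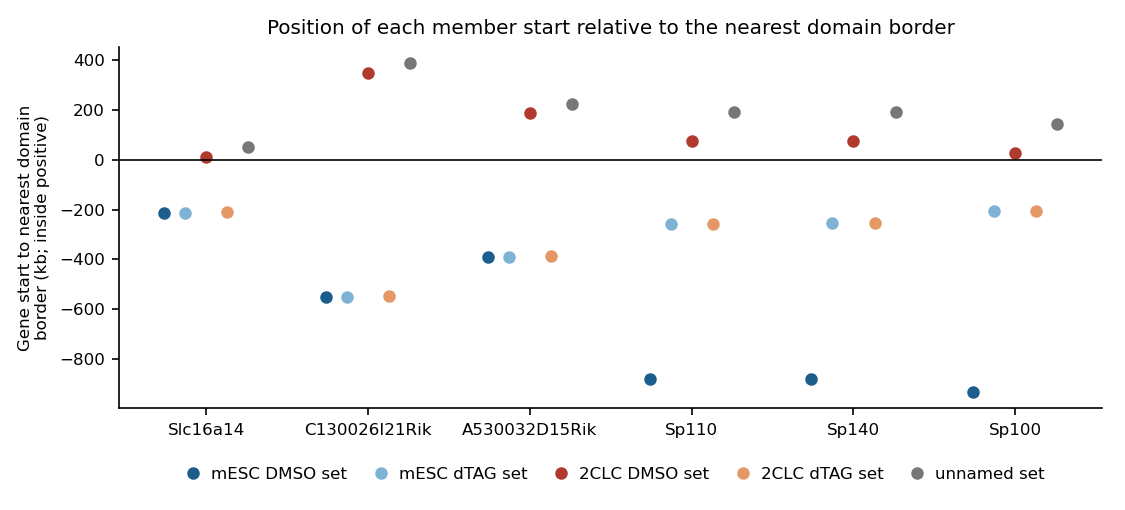
Distance in kb from each member start to the nearest domain border in each set, with positive values for starts inside a domain. The 2CLC DMSO and unnamed sets lie above 0 for each of the 6 members, and the other 3 sets lie 205 kb or more below 0.

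Apart from the members, 2 further protein-coding genes, Gm10553 and G530012D18Rik, start in the locus. Both starts lay in the 2CLC DMSO and unnamed domains and in no domain of the other sets. With them the locus holds 32 annotated gene starts, of which 8 are protein-coding, 15 are pseudogenes and 9 are noncoding. All 32 lay in the domains of 2CLC DMSO and of the unnamed set, and 0 of 32 in those of the other 3 sets. The nearest protein-coding start on the left, that of Trip12, a ubiquitin ligase gene, lay in no domain of any of the 5 sets and was 84.6 kb outside the 2CLC DMSO domain. The nearest on the right, that of A630001G21Rik, was 103.5 kb outside the 2CLC DMSO domain and 12.0 kb inside the domain of the unnamed set.

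The locus lay at a change in the domain landscape. In the 2 Mb to its left, domains of the DMSO sets covered 73.7% of bases for mESCs and 65.0% for 2CLCs, and those of the dTAG sets 48.5% for mESCs and 54.5% for 2CLCs. In the 2 Mb to its right the shares were 0% and 2% in the DMSO sets and 6.75% and 12% in the dTAG sets. Domains thus covered more of the left flank than of the right in each sorted set. How far either flank departs from the coverage of the whole genome was not tested. Of the 35 protein-coding starts in the right flank, the mESC sets held 0 with DMSO and 2 with dTAG, and the 2CLC sets 1 and 3. Of the 19 in the left flank, the mESC sets held 5 and 5, and the 2CLC sets 6 and 14. The equal mESC counts hide 3 starts that left domains with dTAG and 3 that entered. In the unnamed set domains covered 90.25% of the left and 16.5% of the right flank.

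The domain-free stretch around the locus was long in the 3 sorted sets without a domain there. In mESC DMSO it ran for 3305 kb, from base 84720097 to base 88025091, and was the 40th longest of 4303 gaps between domains, whose median was 45.0 kb. In mESC dTAG it measured 1135 kb (rank 181 of 7292 gaps, median 60 kb) and in 2CLC dTAG 1130 kb (rank 114 of 8800, median 55 kb). The left end of the gap was the same base in both mESC sets, and the right end the same base in both dTAG sets. The gap was shorter in the dTAG sets because of a domain at chr1:85855095-85900094 that was present in both of them. That domain held the start of Itm2c, a gene for a membrane protein of the BRICHOS family, and a second domain shared by the dTAG sets held the start of Spata3 (both genes named after their values were seen). Neither start lay in a domain of mESC DMSO or 2CLC DMSO.

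Within 2 Mb of the locus, few flanking starts lay in a 2CLC DMSO domain and so could leave one in 2CLC dTAG. Entry into a domain is a change of call and need not be a gain of the mark. Of the 19 protein-coding starts on the left, 6 lay in such a domain, of which 0 left, and 8 others entered one with dTAG. Of the 35 on the right, 1 lay in such a domain and left, and 3 others entered. The start that left, that of Inpp5d, a phosphoinositide phosphatase of blood cells, lay 1910.3 kb from the locus (named after its value was seen). Over all genes, 4.25% of starts lay in a 2CLC DMSO domain and in no 2CLC dTAG domain, and 5.08% in a mESC DMSO domain and in no mESC dTAG domain. Between the cell states in DMSO, 3.99% of all starts lay in a domain in 2CLC DMSO and not in mESC DMSO.

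At 750 kb the locus domain ranked 434th by width among the 4246 domains of 2CLC DMSO, whose median was 115 kb, so that 10.2% were at least as wide. Among domains absent from the other sorted sets it stood apart. Of the 4246 domains, 201 (4.73%) shared no base with any domain of the other 3 sorted sets, and their median width was 45 kb. The locus domain was the widest of the 201, and the next was 210 kb wide. These 201 domains held 48 protein-coding starts in all, 8 of them in the locus and at most 2 in any other. The 286 starts with the pattern of the members were spread over 227 domains of 2CLC DMSO, since a start can have the pattern in a domain that is shared elsewhere, and 1 other domain held more of them than the locus, with 13. The locus was chosen for this contrast, so these ranks describe it and support nothing.

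**Figure D3:**
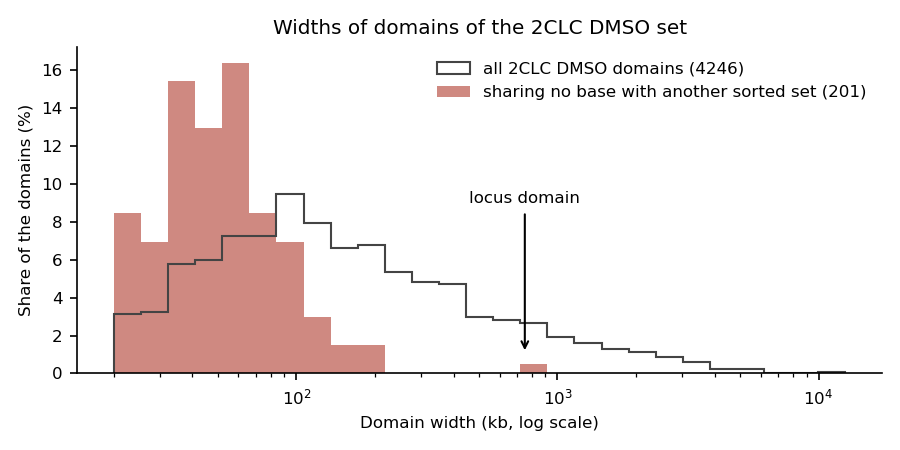
Widths in kb (log scale) of all 4246 domains of the 2CLC DMSO set (line) and of the 201 that share no base with another sorted set (bars), each as a share of its own total. The bars end at 210 kb except for the locus domain at 750 kb (arrow).

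The sequence of the locus sets it apart from its flanks, and bears on how reads can be placed in it. The assembly has a gap of 100 kb in the locus (chr1:85347104-85447103), 12.4% of its length, which the domains of 2CLC DMSO and of the unnamed set run across. Of the 50-base words (50-mers) of the known sequence, read on either strand, 62.2% have another copy in the assembled genome, 56.1% have another copy inside the locus, and 43.5% have copies inside the locus only. In the left flank 10.1% of 50-mers have a copy anywhere, and in the right flank 5.96%. Reads were 100 bases long and paired, so a read can be unique where a 50-mer in it is copied. The shares are therefore of words and not of reads. The base composition differed less, with 44.0% G and C in the locus, 41.0% on the left and 45.3% on the right.

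The copied sequence was unequal among the members. The share of 50-mers of the gene body with a copy anywhere in the genome was 73.0% for C130026I21Rik, 62.9% for Sp140, 61.3% for A530032D15Rik and 49.4% for Sp110. It was 15.2% for Sp100 and 6.47% for Slc16a14, the members cut by the borders of the 2CLC DMSO domain. Trip12 and A630001G21Rik, outside the domain, had 2.83% and 3.34%. In exons, too, Sp100 and Slc16a14 lay below the other 4 members. Of the exon 50-mers of Sp140, 77.0% have a copy in the locus, and 47.2% occur in exons of C130026I21Rik and 28.4% in exons of A530032D15Rik. Of those of Sp110, 61.6% have a copy in the locus and 13.2% occur in exons of C130026I21Rik. For Sp100 the share was 3.39% and for Slc16a14 it was 0%.

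The promoters show these copies directly. Windows from 250 bases before to 50 bases after a RefSeq transcript start (GRCm38.p6) were found for all 6 members, 8 windows in all, and the window nearest to the GENCODE start of each gene is described. These starts need not be the outermost base of the RefSeq gene. Those of Sp140 (chr1:85600453-85600752, plus strand), C130026I21Rik (chr1:85270517-85270816, minus strand) and A530032D15Rik (chr1:85109804-85110103, minus strand) share an identical run of 146 bases, shown in capitals. A read of 100 bases that lies wholly in this run matches all 3 places.
Sp140: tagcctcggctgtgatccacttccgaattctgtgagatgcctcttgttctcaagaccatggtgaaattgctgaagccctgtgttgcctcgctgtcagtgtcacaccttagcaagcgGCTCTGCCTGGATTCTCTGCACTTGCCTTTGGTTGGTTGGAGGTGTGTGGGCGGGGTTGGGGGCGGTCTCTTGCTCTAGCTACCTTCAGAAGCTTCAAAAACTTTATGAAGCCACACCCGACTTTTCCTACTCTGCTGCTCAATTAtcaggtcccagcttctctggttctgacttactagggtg
C130026I21Rik: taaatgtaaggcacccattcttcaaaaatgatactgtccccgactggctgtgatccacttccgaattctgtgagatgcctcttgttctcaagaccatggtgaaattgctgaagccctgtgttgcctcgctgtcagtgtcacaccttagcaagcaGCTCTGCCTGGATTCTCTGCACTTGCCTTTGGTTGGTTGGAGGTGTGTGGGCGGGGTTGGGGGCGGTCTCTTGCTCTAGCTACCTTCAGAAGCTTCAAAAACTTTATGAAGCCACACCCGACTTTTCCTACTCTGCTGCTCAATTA
A530032D15Rik: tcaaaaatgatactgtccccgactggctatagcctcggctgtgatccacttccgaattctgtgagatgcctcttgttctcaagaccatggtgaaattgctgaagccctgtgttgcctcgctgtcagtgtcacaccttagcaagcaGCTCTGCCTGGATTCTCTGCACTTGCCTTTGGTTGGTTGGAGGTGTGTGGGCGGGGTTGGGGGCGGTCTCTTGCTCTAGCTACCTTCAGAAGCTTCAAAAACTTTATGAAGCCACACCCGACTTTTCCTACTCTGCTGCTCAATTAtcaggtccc
The A530032D15Rik and Sp140 windows had 270 identical bases of the 271 that align without a gap, and the C130026I21Rik and A530032D15Rik windows shared a run of 255 bases. Of the 50-mers of the A530032D15Rik window, 100% have another copy in the genome, against 82.1% for C130026I21Rik, 80.1% for Sp140 and 0% for Slc16a14. None of the member windows had a 50-mer with a copy outside the locus.

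Sp110 and Sp100 have promoter windows of their own, also copied in the locus. They are shown because each holds a pair of GAAA elements, the core of interferon response sequences, on the minus strand of the window with 3 bases of any kind between them (in capitals, as read on the strand shown). The Sp100 window is chr1:85649738-85650037, plus strand, and the Sp110 window chr1:85598761-85599060, minus strand.
Sp100: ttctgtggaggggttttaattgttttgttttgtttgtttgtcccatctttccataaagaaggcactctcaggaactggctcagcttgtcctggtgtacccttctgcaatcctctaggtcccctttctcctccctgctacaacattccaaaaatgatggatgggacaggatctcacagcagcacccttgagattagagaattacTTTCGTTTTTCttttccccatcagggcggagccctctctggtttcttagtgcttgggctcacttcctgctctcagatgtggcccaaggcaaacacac
Sp110: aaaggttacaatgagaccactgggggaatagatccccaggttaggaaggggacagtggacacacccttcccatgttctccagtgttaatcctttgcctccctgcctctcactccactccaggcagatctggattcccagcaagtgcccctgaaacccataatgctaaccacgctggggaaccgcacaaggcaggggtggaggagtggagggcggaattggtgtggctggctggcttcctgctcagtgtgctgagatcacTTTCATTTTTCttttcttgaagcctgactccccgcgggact
The match lay 47 to 37 bases before the Sp100 start and 9 to 19 bases after the Sp110 start. This spacing was searched after the sequences had been read, and 2.75% of 32851 promoter windows of the genome hold a match on either strand. Of the 8 member windows 3 hold one, namely the Sp110 window shown and both Sp100 windows, which overlap. The other Sp110 window (chr1:85603842-85604141) holds none. The usual core of the interferon element, a GAAA, 2 bases of any kind and another GAAA, had no match in any of the 8 windows of the members (3.44% of all windows hold one), nor had TTCNNNGAA (8.30% of all windows), a core bound by STAT factors. CG dinucleotides numbered 13 in the Slc16a14 window, 7 in those of Sp140 and A530032D15Rik, 6 in that of C130026I21Rik, 5 in the Sp110 window shown and 2 in that of Sp100, with a median of 7 over all windows.

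The copies of the Sp110 and Sp140 promoters lay side by side. Sequence of the Sp110 window, with at least 25 of its 50-mers, recurred at 2 further sites, 1424 bases from the A530032D15Rik window and 1261 bases from the C130026I21Rik window. The Sp110 and Sp140 windows themselves were 1392 bases apart. In each of the 3 places the pair was thus kept at a similar distance, but no annotated gene starts within 1 kb of the 2 copies of the Sp110 window. The Sp100 window recurred at 3 sites, each within 1 kb of the start of a transcribed pseudogene (Gm7609, Gm2619 and Gm7592, named after the sites were found). All of these sites lay in the domains of 2CLC DMSO and of the unnamed set and in no domain of the other sets.

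Copied sequence and domain ended close to each other. The stretch from the first to the last run of 3 neighbouring 5 kb bins with at least 50% of their 50-mers copied within the locus ran from base 84955096 to base 85660095 (705 kb). The 2CLC DMSO domain began 30 kb to its left and ended 15.0 kb to its right, while the domain of the unnamed set reached 69.5 kb and 130.5 kb beyond it. Of the 161 bins of the locus, 113 had at least 50% of their 50-mers copied in the locus and 19 held no known sequence. The 2CLC DMSO domain covered 150 of the 161. Of the 25 bins with no unknown base and with under 50% of 50-mers repeated on chromosome 1, the 2CLC DMSO domain covered 14, the unnamed set 25 and the other 3 sets 0. According to the methods, reads were 100 bases long and paired, and a read with several best matches was placed at a random one. How far the placement of reads in copied sequence contributes to the calls was not tested.

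**Figure D4:**
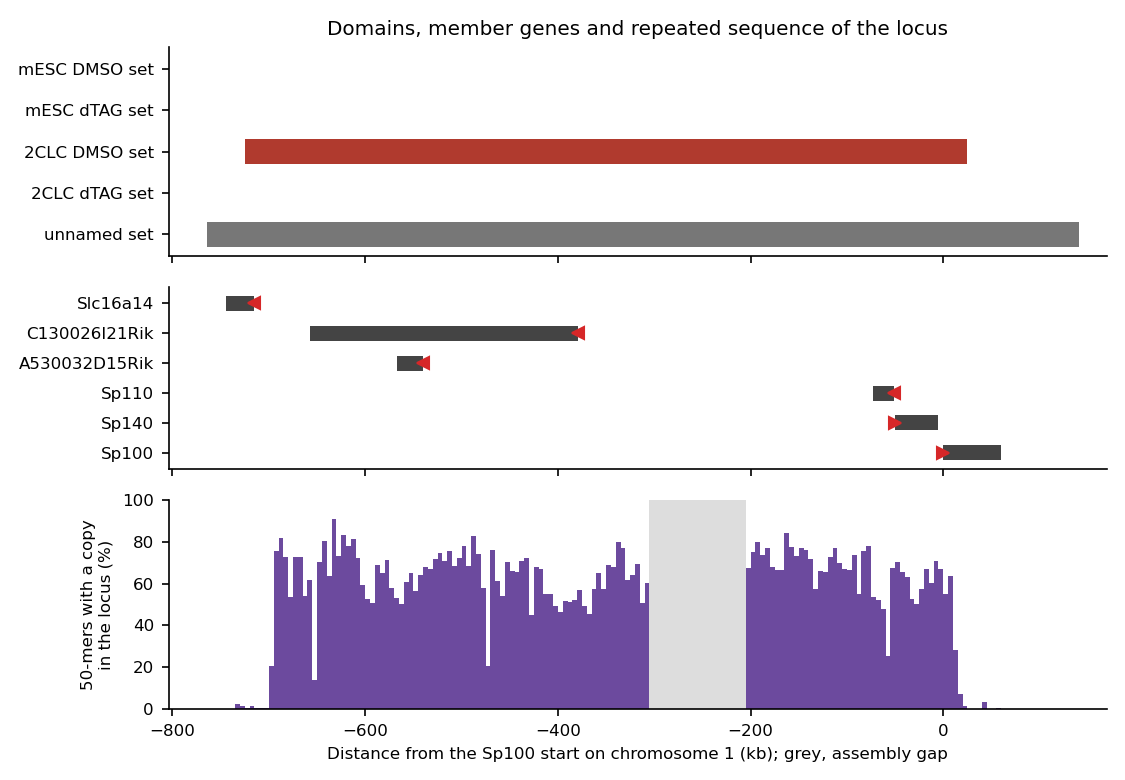
Domains in the 5 sets (top), bodies of the 6 member genes with their starts as arrowheads in the direction of transcription (middle), and the share of 50-mers in each 5 kb bin that have another copy in the locus (bottom, in %; grey, the assembly gap), against the distance from the Sp100 start in kb. The copied stretch of 705 kb ends 30 kb and 15.0 kb inside the borders of the 2CLC DMSO domain.

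The copies were dispersed through the locus. Of the 142 bins with known sequence, 122 shared at least 10% of their distinct 50-mers with a bin that is not their neighbour, with a median of 6 such partners and at most 12. In 23 bins at least 50% were shared with such a partner, at distances of up to 505 kb. The shared stretches ran both in the same and in opposite orientation along the chromosome.

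**Figure D5:**
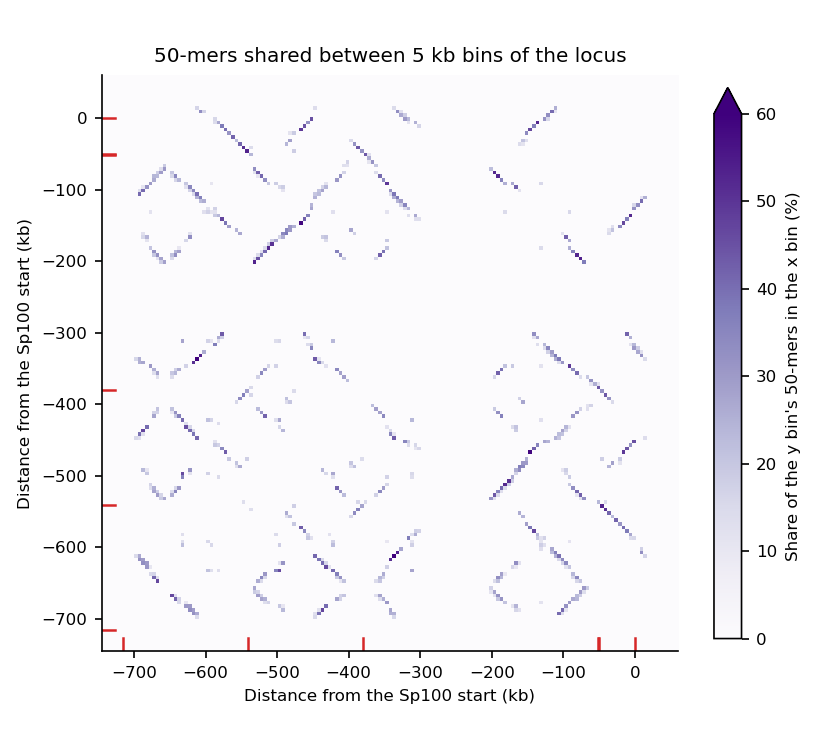
Share of the distinct 50-mers of each 5 kb bin (y axis) that occur in each other bin (x axis), both as distance from the Sp100 start in kb; shares under 10% are left blank and red ticks mark the starts of the 6 members. Lines rising to the right are copies in the same orientation and falling lines inverted copies, and the empty band is the assembly gap.

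Domains with so much copied sequence were few on chromosome 1. Among its 280 domains of 2CLC DMSO the median share of 50-mers repeated on the chromosome was 9.31%, and the locus domain had the highest, 65.1%. Only 3 other domains of at least 100 kb had 30% or more. The one nearest to the locus in this measure, 190 kb wide with 63.6% (chr1:93820085-94010083), was covered to 0% in mESC DMSO, 57.9% in mESC dTAG and 78.9% in 2CLC dTAG. The other 2, with 31.0% and 30.6%, were covered to between 80% and 100% in each of these sets. Of these 4 domains the locus was the only one without a base in 2CLC dTAG or mESC dTAG. The locus was chosen for its absence from these sets, so this contrast describes it and supports nothing.

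Genes of related function or arrangement elsewhere did not show the pattern. Over all protein-coding genes, 65.8% of starts lay in no domain of the 4 sorted sets and 15.1% lay in domains of all 4. Of the 4 genes with a SAND domain outside the locus, the DNA-binding fold that the speckled proteins carry, 0 had a start in a domain of any set. Of 17 genes of PML nuclear bodies, 0 had the pattern of the members, and 2 had a start in a domain of any sorted set, Atrx in mESC dTAG and 2CLC dTAG and Hira in mESC dTAG. Of 28 genes of interferon signalling and response, 0 had the pattern and 23 had a start in no sorted set. Gbp2, a guanylate-binding protein gene, lay in mESC DMSO, 2CLC DMSO and 2CLC dTAG domains, and Trim30a in those of mESC DMSO, mESC dTAG and 2CLC DMSO. The others lay in dTAG domains only among the sorted sets, Ifit2 and Ddx58 in mESC dTAG and Ifit3 in 2CLC dTAG. The unnamed set held 7 of the 28 starts. Of 13 other monocarboxylate transporter genes, 0 had the pattern, and Slc16a7 lay in domains of all 5 sets. Against the 1.31% of all genes with the pattern, lists of this size would hold few such genes in any case.

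The Ifi200 cluster, another interferon-induced and duplicated family on chromosome 1, differed from the locus in the sorted sets other than 2CLC DMSO. Of the 15 genes listed for it, 12 were found in the annotation, without Mnda, Pydc3 and Pydc4. Of these 12, 11 started within domains of all 5 sets, and in each set within a single domain. That domain was 1035 kb wide in 2CLCs with DMSO and 630 kb with dTAG, 730 kb and 555 kb in mESCs with DMSO and dTAG, and 720 kb in the unnamed set. The exception, Aim2, a cytosolic DNA sensor gene, was in a domain of none. A wide 2CLC DMSO domain was therefore seen in both places. Its absence from the other 3 sorted sets, for which the locus was chosen, was seen at the speckled protein genes and not at the Ifi200 genes. The Ifi200 domain of 2CLC DMSO was not among the 4 with 30% or more of 50-mers repeated on chromosome 1. Whether copied sequence has a part in the contrast between the 2 places was not tested.

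The genes outside the locus whose body coverage over the 4 sorted sets was closest to the mean of the members (79.4% in 2CLC DMSO and 0% in the others) were Hapln1, Sytl4, Il1rl2, Gpr82 and E2f5, at distances of 0.24 to 2.57 percentage points. Their bodies were covered to between 78.0% and 81.9% in 2CLC DMSO and to at most 1.42% in any other sorted set. In the unnamed set the coverage was 100% for Sytl4, 85.9% for Il1rl2, 32.9% for Hapln1 and 0% for Gpr82 and E2f5, against 100% for each member. The 2CLC DMSO domain that held most of the body was 175 kb wide for Hapln1, 70 kb for Sytl4, 65 kb for E2f5, 35 kb for Il1rl2 and 30 kb for Gpr82, against 750 kb for the members. A body wholly in 2CLC DMSO domains with no base in the other sorted sets was seen for 93 of all protein-coding genes (0.427%), 4 of the members among them. Sp100 and Slc16a14 were covered to 41.8% and 34.3%, so no member itself had the mean coverage of 79.4%.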

How the data were processed

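The deposited lists give chromosome, start and end of each H3K9me2 domain in mm10, with a deposited score of 0 throughout, which was not used. Per the labels and the methods, the authors aligned reads with STAR 2.7.10 (multiple matches placed at random), removed duplicates with Picard 2.26.0, averaged coverage scaled to genome content over 10 kb in 5 kb steps, ignored positions without signal, and took the log2 ratio of immunoprecipitation to input. Bins above the 80th percentile were extended until a bin below the 30th. Whether replicates were pooled first, and over which set the percentiles were taken, is not given in the sources used here.

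Overlaps with GENCODE M21 genes were computed in Python 3.11.15 with numpy 2.4.6 and checked on simulated domains. A start counted as held when its base lay in a domain. Starts, bodies and borders were placed within 2 Mb of the locus, and 5 kb bins counted when at least 50% lay in domains. 50-mers were counted on both strands of the assembled chromosomes of GRCm38.p6 with numba 0.67.0. Intervals are Wilson 95% intervals over genes, and cover no variation between cultures. Named genes were the members, the other protein-coding starts in the locus, the nearest on each side, the 5 genes closest in body coverage, and examples from 5 lists. The report marks the genes named outside this rule, after their values were seen. Members and lists were chosen with earlier results of these data known. Proteins were not analysed here.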

Additional observations from a re-analysis of the deposited data

Results flagged for a closer look

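The unnamed set was assigned to no group, since its name gives no cell state or treatment. It held the whole locus, with 161 of 161 bins and the bodies of all 6 members in a single domain of 905 kb. Among the 286 starts that lay in 2CLC DMSO and in no other sorted set, the unnamed set held 172, or 60.1%, against 30% of all protein-coding starts. Of the 201 domains of 2CLC DMSO without a base in the other sorted sets, 129 (64.2%) were covered to at least 50% by the unnamed set. The unnamed set covered the most bases of all sets, 1649.83 Mb against 1356.59 Mb for 2CLC DMSO. The share of any stretch of the genome that it covers to this extent was not computed, so the 64.2% has no background here. Bulk mESC DMSO is the only group without a list named for it. Which cells the unnamed set describes was not tested, and the 0 of 161 bins in the mESC DMSO set therefore holds for the sorted mESCs.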

How the results depend on the processing

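The counts of member starts kept their direction under each of the 40 alternatives, 8 for each set. The count in 2CLC DMSO was 6 under 7 of them and 4 when at least 50% of the body was required, since Slc16a14 and Sp100 are covered in part. RefSeq coordinates, an alternative chosen after seeing the data, left 6 of 6. The bins of the locus in domains kept within 1.5 times of their number under 23 of 25 alternatives. With bins restricted to known sequence of under 50% repeated 50-mers, of which there are 25, the count was 14 in 2CLC DMSO and 25 in the unnamed set. The share of genes with the pattern of the members was 1.5% over all annotated genes, and between 1.23% and 1.4% under the other alternatives. The shares of starts leaving domains were 5.47% in mESCs and 4.58% in 2CLCs with domains of at least 50 kb. No paired analysis was possible because the lists hold no values per replicate, and replicates could not be left out for the same reason. The depth of the libraries is unknown.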
